A study of Mus musculus with 12 samples.

Results

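The genes described here are 39 genes of the secretory pathway and the unfolded protein response, followed across 6 sorted populations of mouse bone marrow. They were chosen by name and cover stress sensors, chaperones, disulfide isomerases, degradation factors, the translocon and the signal peptidase, together with 2 genes best known from plasma cells. All 39 names were found on the array, under 53 probes, and each gene was represented by its brightest probe. They are 39 of the 18555 genes tested.

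Marrow of female C57BL/6 mice aged 16 weeks was sorted by flow cytometry, and Cy3-labelled cRNA amplified from total RNA was hybridised to one-colour mouse arrays, 2 per population. All animals carried a reporter in which Cebpa enhancer and promoter sequence drives human CD4 (hCD4), so that hCD4 on a cell marks activity of that sequence. The populations were hCD4+ granulocyte-monocyte progenitors (GMP), hCD4+ and hCD4- pre-pro-B cells, hCD4+ and hCD4- pro-B cells, and pre-B cells, for which the labels state no hCD4 status. Nothing in the labels links a replicate to one animal, and the p-values therefore reflect only the spread between these samples, which may be technical.

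Proteins that are secreted or sit in membranes are threaded into the endoplasmic reticulum (ER) through the Sec61 translocon, trimmed by signal peptidase, and folded there by chaperones, lectins and disulfide isomerases. Misfolded chains are passed back to the cytosol for degradation. When unfolded protein builds up, the sensors IRE1 (gene Ern1), ATF6 and PERK set off the unfolded protein response: IRE1 splices Xbp1 mRNA, and XBP1 and ATF6 then switch on chaperone and degradation genes, while PERK acts through ATF4 and CHOP (gene Ddit3). In the B lineage this system is best known from plasma cells, where Prdm1 and Xbp1 are needed for antibody secretion.

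The arrays lay on 3 slides of 4, each scanned in 1 run. Slide 1 held GMP and hCD4- pre-pro-B arrays, slide 2 the arrays of hCD4- pro-B cells with those of hCD4+ pre-pro-B cells, and slide 3 hCD4+ pro-B and pre-B arrays, so slide and population can be told apart only in comparisons made within a slide. Replicates correlated at 0.982 to 0.992. The hCD4- pre-pro-B arrays had the widest spread between replicates (median SD 0.221, against 0.0977 to 0.152 in the other groups). Of the B lineage markers, Ebf1 was well above background on every pro-B and pre-B array and on no pre-pro-B or GMP array. Levels below are log2 signal with each array's 75th percentile set to 0, and changes are differences of group means on that scale, with standard errors (SE) from a limma model over all 12 arrays. The words rose and fell are used of genes whose limma adjusted p was under 0.05. In these bulk samples fewer cells of a type and less RNA per cell cannot be told apart.

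Of the 39 genes, 38 were well above background on both arrays of every population. The exception was Prdm1, which encodes the repressor Blimp-1: neither GMP array and neither hCD4- pre-pro-B array measured it, and 1 of 2 hCD4+ pre-pro-B arrays did. Across the 6 populations 36 of the 39 genes varied by limma's F test, against 82.8% of all genes tested. The 3 that did not pass were Atf4 (adjusted p = 0.232), Ddit3 (0.432) and Sel1l (0.0656).

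The main line through the data was a division between GMP and pre-pro-B arrays on one side and pro-B and pre-B arrays on the other. In 23 of 39 genes every GMP and pre-pro-B array lay above every pro-B and pre-B array, against 6.49% of all genes. These included all 7 genes of the translocon and its associated signal sequence receptor and all 3 of signal peptidase. Some gaps were narrow, with a lowest early value of 1.44 against a highest late value of 1.43 for Ssr2. The same values were 3.84 and 3.82 for Spcs1, 4.22 and 4.21 for Calr, and 3.04 and 3.02 for Dnajb11. Ssr2 and Spcs1 lost the order under normexp background correction and under array median scaling, and Ssr4 under normexp. The reverse order was seen in 2 genes, Syvn1 and Prdm1, against 7.9% of all genes. For Prdm1 it was narrow, with -3.95 on an hCD4- pre-pro-B array, not above background, and -3.89 on an hCD4- pro-B array. Under normexp background correction only Syvn1 kept this order. The 23 became 17 to 25 under 5 other scalings of the arrays. The highest mean was that of GMP in 22 of 39 genes (26.5% of all genes; 16 to 27 genes under other scalings), and the lowest was that of pre-B cells in 20 (16% of all genes).

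**Figure D1:**
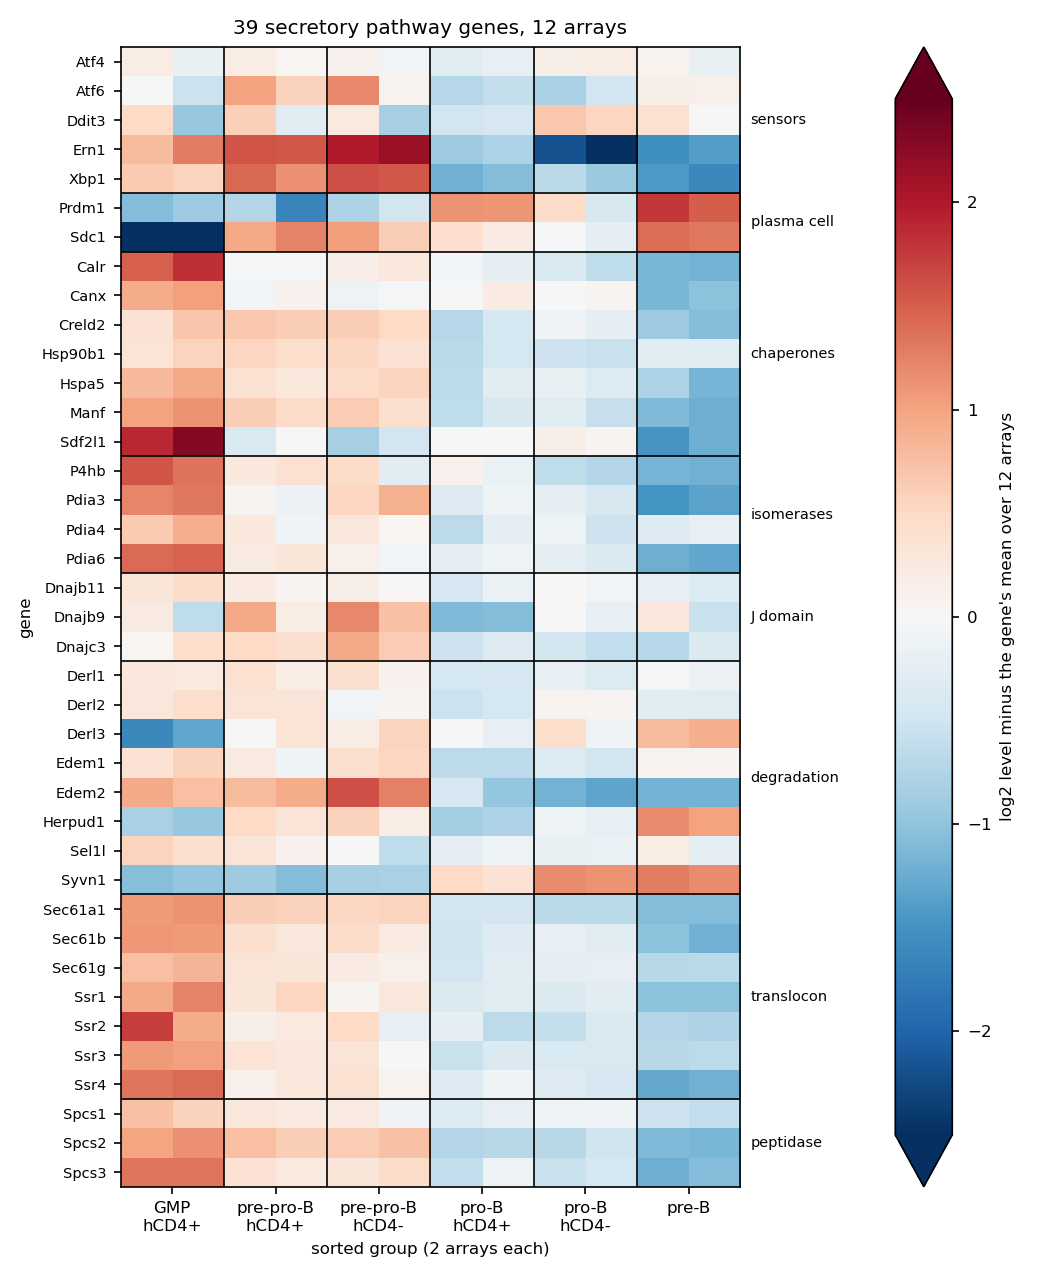
Levels of the 39 genes on the 12 arrays, each gene centred on its own mean (colour, log2 units, deepest colour at 2.5 or beyond) and grouped by role, with the 2 arrays of each sorted population side by side. Translocon and signal peptidase genes are above their means on GMP and pre-pro-B arrays, except Ssr2 and Spcs1 on hCD4- pre-pro-B replicate 2, and below them on pro-B and pre-B arrays, while Syvn1 shows the reverse.

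Promoter sequence is shown for the chaperone and degradation genes because many of them carry the element through which ATF6 and XBP1 are known to act. RefSeq promoter windows (250 bases before to 50 after the annotated start, build GRCm38.p6) were matched by symbol for 33 of the 39 genes. The ER stress response element (ERSE) was searched as CCAAT, 9 bases of any kind, then CCACG, on both strands. It lay in the windows of 9 of 33 genes (27.3%), against 39 of all 32851 windows (0.119%). The 9 were Calr, Canx, Creld2, Derl3, Dnajc3, Hsp90b1, Hspa5, Pdia6 and Syvn1. A related element, ERSE-II (ATTGG, 1 base of any kind, CCACG), lay in 2 of 33, Dnajb11 and Herpud1, against 0.0365% of all windows. The half-sites are common: CCACG alone lay in 81.8% of the matched genes and 32.8% of all windows, and CCAAT alone in 78.8% and 37.4%. Each ERSE holds both half-sites. TGATGNAA, a composite site known for ATF4, lay in 1 of 33 genes, Herpud1, against 3.97% of all windows, and the UPRE (TGACG followed directly by TGG) in 0 of 33, against 0.676%. A match to these letters is a description of the window and does not show that a factor binds there.

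The 250 bases before the start are printed 5′ to 3′ on the coding strand, with the 2 half-sites of ERSE or ERSE-II in capitals. They are Hspa5 (chr2:34771840-34772089, plus strand), Calr (chr8:84846932-84847181, minus strand), Canx (chr11:50325674-50325923, minus strand), Hsp90b1 (chr10:86705445-86705694, minus strand), Derl3 (chr10:75893148-75893397, plus strand), Syvn1 (chr19:6046326-6046575, plus strand) and Herpud1 (chr8:94386179-94386428, plus strand). The first 4 encode chaperones and lectins and the last 3 degradation factors.
Hspa5: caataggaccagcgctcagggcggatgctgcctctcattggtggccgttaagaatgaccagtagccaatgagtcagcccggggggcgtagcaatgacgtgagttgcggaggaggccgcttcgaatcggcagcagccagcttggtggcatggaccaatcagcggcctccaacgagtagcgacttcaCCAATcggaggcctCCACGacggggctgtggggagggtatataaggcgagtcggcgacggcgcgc
Calr: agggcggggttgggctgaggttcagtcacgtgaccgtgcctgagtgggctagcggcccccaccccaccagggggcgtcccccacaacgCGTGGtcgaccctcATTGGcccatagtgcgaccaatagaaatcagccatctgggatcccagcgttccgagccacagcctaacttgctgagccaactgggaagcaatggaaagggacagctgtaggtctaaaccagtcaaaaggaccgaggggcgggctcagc
Canx: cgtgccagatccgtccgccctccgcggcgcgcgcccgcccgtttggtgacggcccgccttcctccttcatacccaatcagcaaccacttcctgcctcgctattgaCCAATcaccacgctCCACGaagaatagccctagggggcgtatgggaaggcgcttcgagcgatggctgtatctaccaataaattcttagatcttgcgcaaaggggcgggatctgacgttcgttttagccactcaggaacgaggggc
Hsp90b1: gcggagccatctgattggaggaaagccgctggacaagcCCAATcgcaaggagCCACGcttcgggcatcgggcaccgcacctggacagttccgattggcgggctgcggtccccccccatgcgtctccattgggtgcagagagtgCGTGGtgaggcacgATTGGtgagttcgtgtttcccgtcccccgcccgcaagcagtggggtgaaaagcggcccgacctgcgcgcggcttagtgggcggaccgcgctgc
Derl3: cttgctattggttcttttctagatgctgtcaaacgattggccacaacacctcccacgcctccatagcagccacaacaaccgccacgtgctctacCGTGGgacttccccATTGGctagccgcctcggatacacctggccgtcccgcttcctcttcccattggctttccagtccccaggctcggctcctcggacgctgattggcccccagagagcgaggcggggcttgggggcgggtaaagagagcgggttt
Syvn1: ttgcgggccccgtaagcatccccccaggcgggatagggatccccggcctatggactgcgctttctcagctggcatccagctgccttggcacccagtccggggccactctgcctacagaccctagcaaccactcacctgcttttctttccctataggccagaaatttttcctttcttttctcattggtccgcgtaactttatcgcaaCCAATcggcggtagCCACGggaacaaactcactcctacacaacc
Herpud1: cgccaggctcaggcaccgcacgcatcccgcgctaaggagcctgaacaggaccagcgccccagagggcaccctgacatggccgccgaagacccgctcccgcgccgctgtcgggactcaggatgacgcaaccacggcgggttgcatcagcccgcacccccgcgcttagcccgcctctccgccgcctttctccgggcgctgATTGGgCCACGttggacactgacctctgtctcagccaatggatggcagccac

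Hsp90b1 carried 2 ERSE copies, at -212 to -194 and at -107 to -89 from the start on opposite strands, and the other 8 genes carried 1. The Syvn1 copy lay nearest to the start, at -44 to -26, and that of Hspa5 at -65 to -47. The ERSE-II of Herpud1 lay at -52 to -42.

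**Figure D2:**
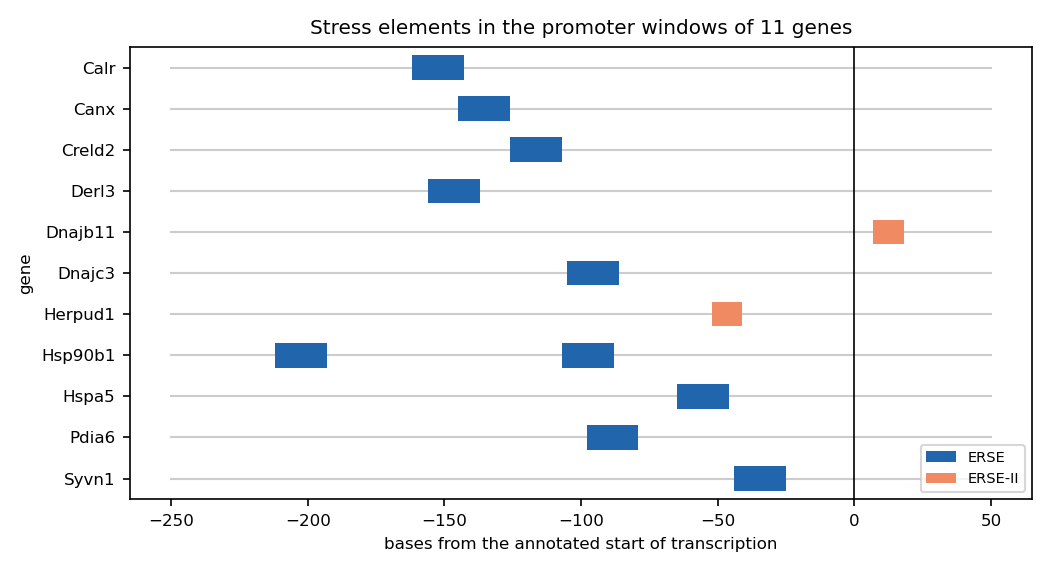
Position of ERSE (blue) and ERSE-II (orange) matches in the promoter windows of the 11 genes that have one, in bases from the annotated start of transcription (0). Hsp90b1 has 2 matches, and the only match after the start is that of Dnajb11.

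The step from pre-pro-B to pro-B cells held the broadest change. Most of the pathway was lower in hCD4- pro-B cells than in either pre-pro-B population, with the sensor gene Ern1 and the transcription factor gene Xbp1 among the largest falls, and the ubiquitin ligase gene Syvn1 the largest rise. Against hCD4+ pre-pro-B arrays, which shared their slide, 24 of 39 genes fell (18.6% of all genes) and 2 rose (29.2%). Against hCD4- pre-pro-B arrays on another slide, 26 fell (26.9% of all genes) and 2 rose (32.7%). The median change of the 39 genes was -0.57 in the first comparison and -0.60 in the second, beside 0.15 and 0.02 over all genes. Both comparisons share the hCD4- pro-B arrays.

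**Figure D3:**
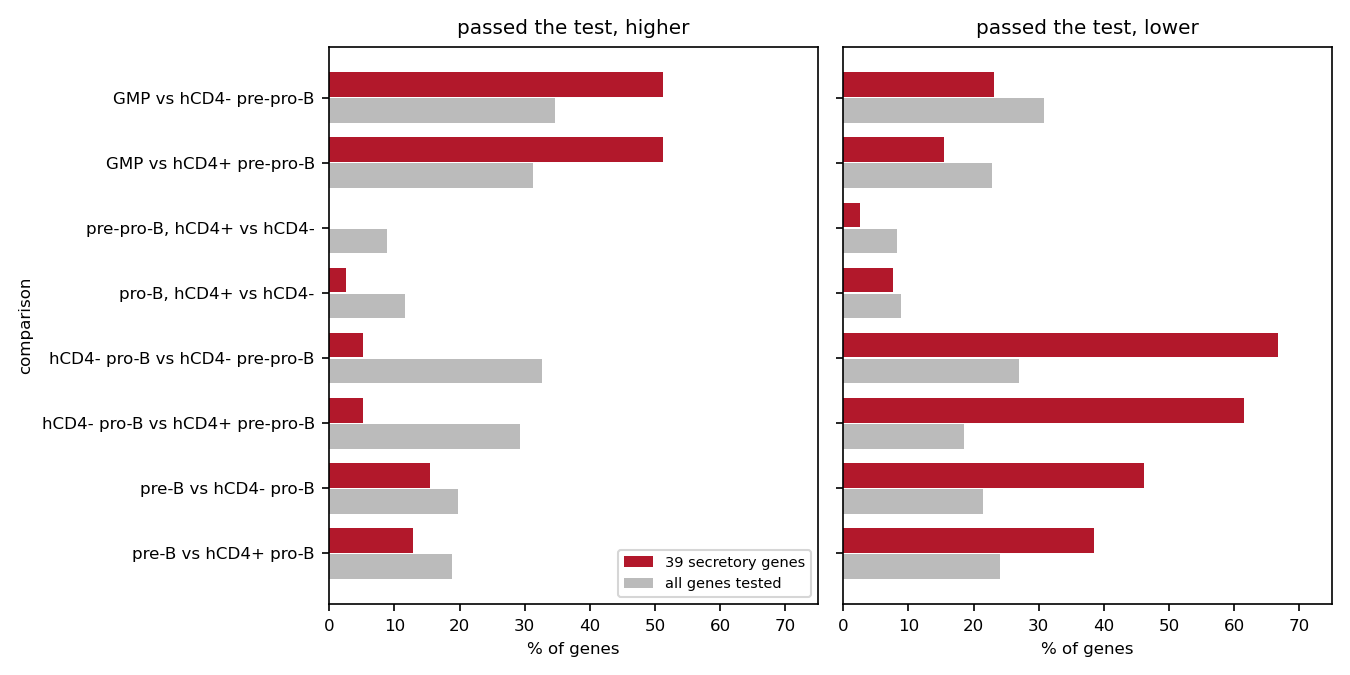
Share of the 39 genes (red) and of all genes tested (grey) that were higher (left) or lower (right) at an adjusted p under 0.05, for 8 comparisons. The red bar is longest for falls in hCD4- pro-B cells, at 66.7% and 61.5% of the 39 genes against the pre-pro-B populations.

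Among the sensors, Xbp1 lay at 3.27 and 3.02 on hCD4- pro-B arrays and at 2.74 and 2.86 on hCD4+ pro-B arrays, against 5.38 and 5.10 on hCD4+ and 5.57 and 5.50 on hCD4- pre-pro-B arrays. The groups were far apart, with every pro-B array over 1 log2 unit below every pre-pro-B array. In hCD4- pro-B cells Xbp1 was 4.27-fold lower than in hCD4+ pre-pro-B cells (-2.09, SE 0.14, adjusted p = 8.04e-06) and 5.25-fold lower than in hCD4- ones (-2.39, SE 0.14, adjusted p = 2.42e-06). The single probe used (chr11:5425816-5425875, mm9, plus strand) gives 1 value for the gene, and nothing in these data separates spliced from unspliced mRNA.

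Ern1, which encodes IRE1, the enzyme that splices Xbp1 mRNA, moved further. It lay at -1.45 and -1.75 on hCD4- pro-B arrays, against 2.31 and 2.28 on hCD4+ and 2.72 and 2.89 on hCD4- pre-pro-B arrays. That is 14.9-fold lower than in hCD4+ pre-pro-B cells (-3.90, SE 0.18, adjusted p = 9.24e-07) and 21.2-fold lower than in hCD4- ones (-4.41, SE 0.18, adjusted p = 3.50e-07). Atf6, the sensor that is cut in the Golgi to release a transcription factor, lay at -2.42 and -2.09 on hCD4- pro-B arrays, against -0.60 and -1.02 on hCD4+ pre-pro-B arrays (-1.45, SE 0.35, adjusted p = 0.00911). This call was lost without hCD4+ pre-pro-B replicate 1 or without hCD4- pro-B replicate 1.

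Atf4 and Ddit3, which act downstream of PERK, gave no call. Atf4, the transcription factor translated when PERK is active, lay at 6.64 and 6.66 on hCD4- pro-B arrays, against 6.67 and 6.54 on hCD4+ and 6.59 and 6.41 on hCD4- pre-pro-B arrays. Its change was 0.04 (SE 0.16, adjusted p = 0.85) against hCD4+ pre-pro-B arrays. A second, less bright Atf4 probe gave 0.08 there. Against hCD4- pre-pro-B arrays that probe gave -0.61 where the brighter one gave 0.15. Ddit3, encoding CHOP, lay at -0.37 and -0.49 on hCD4- pro-B arrays, against -0.44 and -1.32 on hCD4+ and -0.79 and -1.87 on hCD4- pre-pro-B arrays. Its change was 0.45 (SE 0.52, adjusted p = 0.517, or 0.331 with the replicate number as a block), and its level was higher on the array numbered 1 in 5 of 6 populations.

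Among 7 chaperones and lectins 5 fell against hCD4+ pre-pro-B arrays. Hspa5, which encodes BiP, the Hsp70 of the ER, lay at 5.66 and 5.51 on hCD4- pro-B arrays, against 6.24 and 6.11 on hCD4+ and 6.33 and 6.41 on hCD4- pre-pro-B arrays. It fell by 0.59 (SE 0.17, adjusted p = 0.0194) and by 0.78 (SE 0.17, adjusted p = 0.00391). The first of these calls was lost without hCD4+ pre-pro-B replicate 1 or hCD4- pro-B replicate 2. Hsp90b1, the ER Hsp90, fell by 1.03 (SE 0.13, adjusted p = 0.000289) against hCD4+ pre-pro-B arrays, and Manf, a secreted ER stress protein, by 0.98 (SE 0.15, adjusted p = 0.000782). The lectin gene Canx showed a change of 0.02 (SE 0.12, adjusted p = 0.936), and Sdf2l1 one of 0.29 (SE 0.20, adjusted p = 0.274). Against hCD4- pre-pro-B arrays Sdf2l1 rose by 0.77 (SE 0.20, adjusted p = 0.0108), a call lost without hCD4- pre-pro-B replicate 1 or hCD4- pro-B replicate 1.

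The translocon genes mostly fell. Sec61a1, the channel subunit, lay at 3.72 and 3.71 on hCD4- pro-B and at 3.93 and 3.94 on hCD4+ pro-B arrays, against 5.0 and 4.96 on hCD4+ and 4.90 and 4.94 on hCD4- pre-pro-B arrays. It fell by 1.26 (SE 0.09, adjusted p = 1.18e-05) against hCD4+ pre-pro-B arrays. Of the 7 genes of the translocon and signal sequence receptor 6 fell in each comparison, by 0.52 (Sec61g) to 1.26 against hCD4+ pre-pro-B arrays. Ssr2 gave -0.69 (SE 0.31, adjusted p = 0.101). Of 3 signal peptidase genes, Spcs2 fell by 1.28 (SE 0.12, adjusted p = 4.66e-05) and Spcs3, whose product is part of the same complex, by 0.81 (SE 0.17, adjusted p = 0.00416), while Spcs1 gave -0.36 (SE 0.13, adjusted p = 0.0546). A second probe named Spcs2 gave 0.08 where the brighter probe gave -1.28, so the fall of Spcs2 rests on 1 probe.

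Of 4 disulfide isomerases P4hb and Pdia6 fell, by 1.01 (SE 0.23, adjusted p = 0.00659) and 0.57 (SE 0.11, adjusted p = 0.00352) against hCD4+ pre-pro-B arrays. Of 3 J domain co-chaperones, Dnajc3, which encodes an inhibitor of PERK, fell by 0.98 (SE 0.19, adjusted p = 0.00272). Dnajb9 lay at 0.82 and 0.61 on hCD4- pro-B arrays, against 1.78 and 1.01 on hCD4+ pre-pro-B arrays, a change of -0.68 with an SE of 0.39 (adjusted p = 0.187, or 0.0444 with the replicate number as a block). It too was higher on the array numbered 1 in 5 of 6 populations.

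The degradation genes went both ways. Edem2, which helps to mark misfolded glycoproteins, lay at -3.25 and -3.38 on hCD4- pro-B arrays, against -1.27 and -1.14 on hCD4+ pre-pro-B arrays, and fell by 2.11 (SE 0.20, adjusted p = 5.01e-05). Syvn1, the ligase (Hrd1) at the core of ER-associated degradation, lay at 6.05 and 5.99 on hCD4- and 5.37 and 5.24 on hCD4+ pro-B arrays, against 3.99 and 3.79 on hCD4+ and 4.04 and 4.06 on hCD4- pre-pro-B arrays. Every pro-B array was thus at least 1 log2 unit above every pre-pro-B array. In hCD4- pro-B cells Syvn1 was 4.38-fold higher than in hCD4+ pre-pro-B cells (2.13, SE 0.11, adjusted p = 2.12e-06). Its partner gene Sel1l gave -0.39 (SE 0.22, adjusted p = 0.185), and that change did not pass the test. Herpud1, a membrane protein of the same complex, fell by 0.57 (SE 0.15, adjusted p = 0.0139), a call lost without hCD4+ pre-pro-B replicate 1 or hCD4- pro-B replicate 2.

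**Figure D4:**
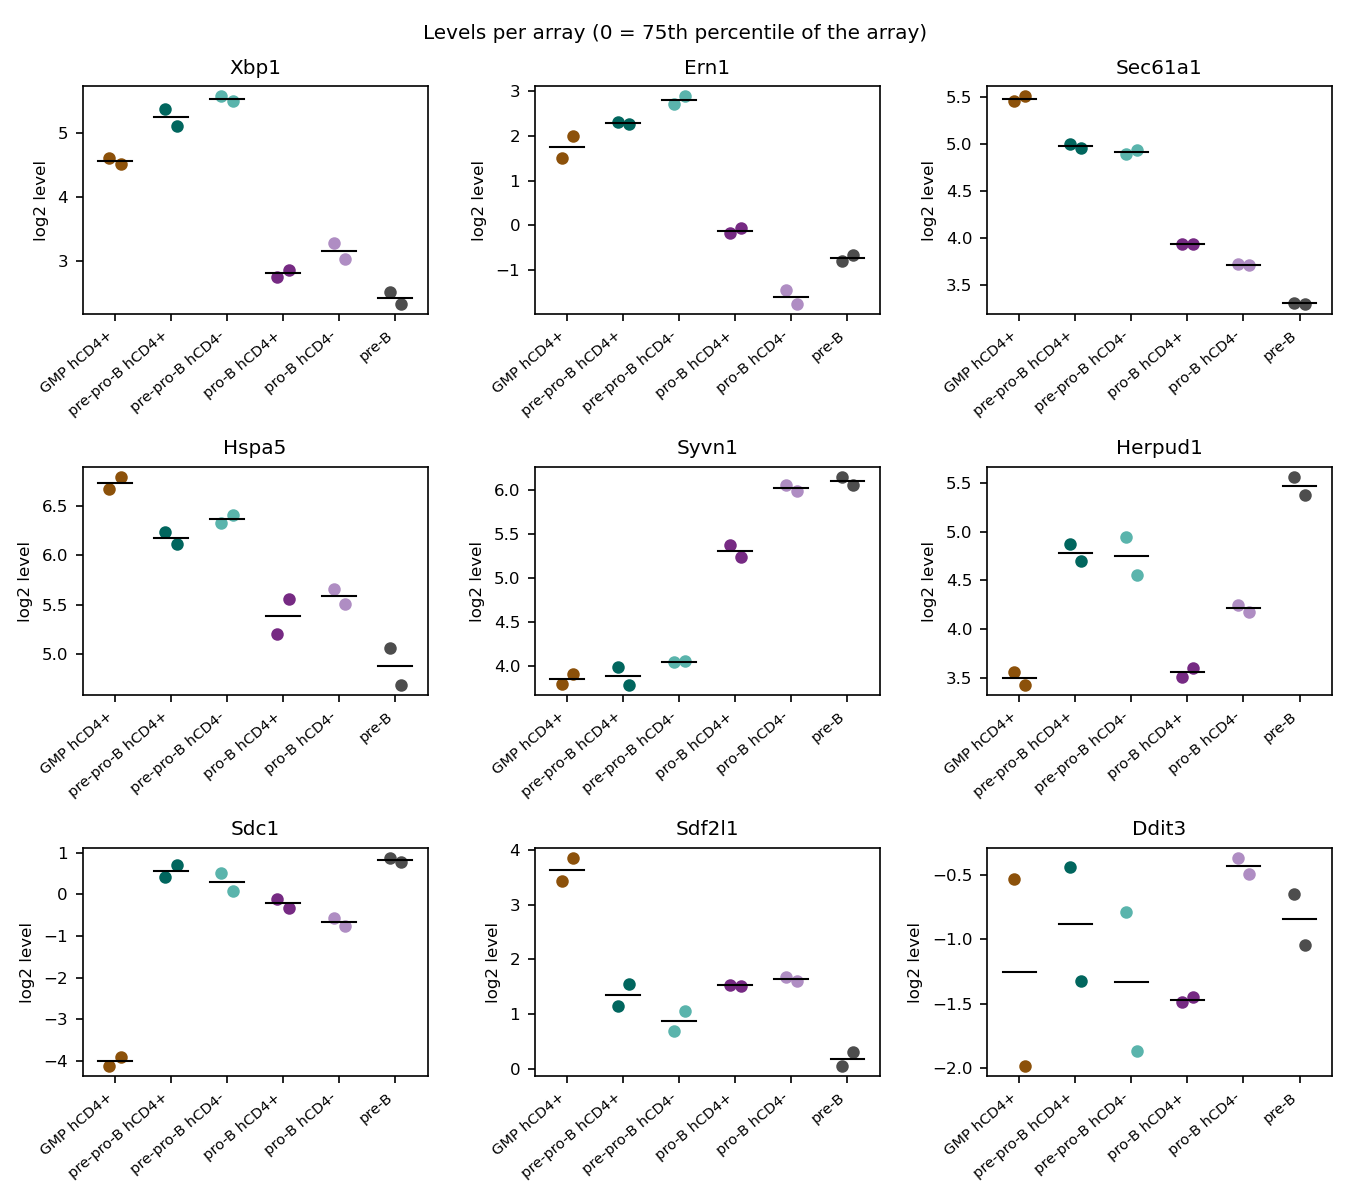
Levels of 9 genes on each array (dots) with the mean of the 2 arrays (bar), as log2 signal relative to the array's 75th percentile, with a separate scale for each gene. Xbp1, Ern1 and Sec61a1 divide the pre-pro-B from the pro-B arrays, Syvn1 does so in the opposite direction, Herpud1 is highest on pre-B arrays, and the 2 Ddit3 values of GMP and of either pre-pro-B population lie far apart.

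The 2 plasma cell genes went in opposite directions. Sdc1, encoding the surface proteoglycan CD138, lay at -0.58 and -0.77 on hCD4- pro-B arrays, against 0.42 and 0.70 on hCD4+ pre-pro-B arrays, and fell by 1.23 (SE 0.18, adjusted p = 0.000648). Prdm1 lay at -3.02 and -3.89 on hCD4- pro-B arrays, against -4.22 and -5.15 on hCD4+ pre-pro-B arrays, of which 1 measured it above background. It rose by 1.23 (SE 0.35, adjusted p = 0.0184), a call lost under normexp background correction, with only the compared arrays, without hCD4+ pre-pro-B replicate 2 and without hCD4- pro-B replicate 1. Against hCD4- pre-pro-B arrays, neither of which measured it, the mean of Prdm1 was higher by a bound of at least 1.57-fold. That difference did not pass the test (adjusted p = 0.135).

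Summed levels of several marker lists moved at the same step. A list of 10 genes of plasmacytoid dendritic cells, among them Bst2, Ly6d and Ccr9, had a summed level (log2) of 7.24 to 7.26 on hCD4- pro-B and 7.68 on both hCD4+ pro-B arrays, against 9.78 to 9.86 on hCD4+ and 10.13 to 10.25 on hCD4- pre-pro-B arrays. Of these 10 genes 9 fell in hCD4- pro-B relative to hCD4+ pre-pro-B arrays and 10 against hCD4- pre-pro-B arrays, and all 10 were above background on both arrays of all 4 groups. Late neutrophil genes, all 6 of which rose against hCD4+ pre-pro-B arrays, summed to 3.82 to 4.68 on hCD4- pro-B arrays, against -1.71 to -1.68 on hCD4+ and -0.26 to 1.45 on hCD4- pre-pro-B arrays. The 9 plasma cell genes in the fit summed to 7.21 to 7.26 on hCD4- pro-B arrays, against 4.65 to 4.69 on hCD4+ and 6.30 to 7.18 on hCD4- pre-pro-B arrays, and 6 proliferation genes to 7.92 to 8.03, against 6.79 to 6.94 and 4.19 to 4.58. The brightest plasma cell genes on hCD4- pro-B arrays were Igh-VJ558 (mean 6.16) and Pou2af1 (5.82), and Pou2af1 was brighter still on pre-B arrays (6.52). Of 5 erythroid genes 4 rose against each pre-pro-B population, with sums of 0.35 to 0.36 on hCD4- pro-B arrays, against -1.88 to -0.31 on hCD4+ and -2.22 to -1.29 on hCD4- pre-pro-B arrays. Primary granule genes summed to 0.20 to 0.89 on hCD4- pro-B arrays, against 3.70 to 5.05 and 0.78 to 1.51. The part of cells carrying these markers, or of proliferation, in the changes above was not tested. The fall of Xbp1, Ern1, Edem2 and Sec61a1 and the rise of Syvn1 kept direction and call against both pre-pro-B populations under all alternatives tried. These alternatives changed the processing, the model or the arrays used, and none of them tests the mix of cells.

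From pro-B to pre-B cells genes of the pathway went both ways. Against hCD4+ pro-B cells, 5 of 7 chaperones and lectins, 3 of 4 disulfide isomerases, 4 of 7 translocon and receptor genes and 2 of 3 signal peptidase genes fell in pre-B cells, whereas 4 of 8 degradation genes and Sdc1 rose. Against hCD4+ pro-B arrays, on the same slide, 15 of 39 genes fell (24% of all genes) and 5 rose (18.8%), with a median of -0.30 beside 0.01 over all genes. Against hCD4- pro-B arrays, on another slide, 18 fell (21.4%) and 6 rose (19.7%), with a median of -0.37 beside 0.03.

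Herpud1 rose most. It lay at 5.56 and 5.38 on pre-B arrays, against 3.51 and 3.60 on hCD4+ and 4.25 and 4.18 on hCD4- pro-B arrays. It was 3.77-fold higher than in hCD4+ pro-B cells (1.91, SE 0.15, adjusted p = 3.57e-05) and 2.39-fold higher than in hCD4- ones (1.26, SE 0.15, adjusted p = 0.000517). Both pre-B arrays lay above every other array of the series. Derl3, a derlin that takes part in moving substrates out of the ER, lay at -0.05 and 0.07 on pre-B arrays, against -0.86 and -1.06 on hCD4+ pro-B arrays (0.97, SE 0.22, adjusted p = 0.0091). Without hCD4+ pro-B replicate 2 or pre-B replicate 2 this call was lost. Edem1 rose by 0.73 (SE 0.14, adjusted p = 0.00403) and Syvn1 by 0.79 (SE 0.11, adjusted p = 0.000845) against hCD4+ pro-B arrays. Against hCD4- pro-B arrays Edem1 rose by 0.47 (SE 0.14, adjusted p = 0.0295), a call lost in 6 alternatives, among them leaving out any 1 of the 4 arrays, while Syvn1 gave 0.07 (SE 0.11, adjusted p = 0.653).

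Several folding genes fell, though not Hsp90b1 (0.25, SE 0.13, adjusted p = 0.159) or Pdia4 (0.18, SE 0.21, adjusted p = 0.54) against hCD4+ pro-B arrays. Sdf2l1, a partner of BiP and ERdj3, lay at 0.07 and 0.32 on pre-B arrays, against 1.54 and 1.52 on hCD4+ and 1.69 and 1.60 on hCD4- pro-B arrays. It was 2.53-fold lower than in hCD4+ pro-B cells (-1.34, SE 0.20, adjusted p = 0.00104). Canx, the membrane lectin of the calnexin cycle, lay at 3.29 and 3.42 on pre-B arrays, against 4.45 and 4.65 on hCD4+ pro-B arrays (-1.20, SE 0.12, adjusted p = 0.000135). Pdia3, the isomerase that works with calnexin and calreticulin, lay at 1.23 and 1.38, against 2.40 and 2.62 on hCD4+ pro-B arrays (-1.21, SE 0.16, adjusted p = 0.000443). P4hb lay at 1.77 and 1.74, against 3.05 and 2.78 on hCD4+ pro-B arrays (-1.16, SE 0.23, adjusted p = 0.00406). In all 4 genes no pre-B array overlapped a pro-B array. They were picked as the largest falls called against hCD4+ pro-B arrays, and the share of all genes with this order was not computed.

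Other falls against hCD4+ pro-B arrays were those of Pdia6 (-1.08), Ssr4 (-1.03), Calr, the soluble counterpart of calnexin (-1.02), Spcs3 (-0.78), Sec61b (-0.70), Ssr1 (-0.68), Sec61a1 (-0.64), Manf (-0.64) and Spcs2 (-0.41). Less bright kept probes gave 0.04 and -0.77 for Sec61b and -0.24 and -0.71 for Ssr1. Such probes gave -0.48 for Pdia6, -0.92 for Spcs3 and -0.26 for Spcs2. The call of Spcs2 was lost in 8 alternatives, leaving out any 1 of the 4 arrays among them, and that of Manf without hCD4+ pro-B replicate 2 or pre-B replicate 2. Hspa5 lay at 5.06 and 4.69 on pre-B arrays, against 5.20 and 5.56 on hCD4+ pro-B arrays (-0.50, SE 0.17, adjusted p = 0.0401). That call was lost in 15 of the alternatives, among them quantile normalization and the authors' table. Against hCD4- pro-B arrays Hspa5 fell by 0.71 (SE 0.17, adjusted p = 0.0108).

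The sensor genes moved less at this step. Xbp1 lay at 2.51 and 2.33 on pre-B arrays, below all 4 pro-B arrays, with a fall of 0.73 (SE 0.14, adjusted p = 0.00485) against hCD4- pro-B arrays and a change of -0.38 (SE 0.14, adjusted p = 0.0607) against hCD4+ ones. Ern1 lay at -0.80 and -0.67, between the 2 pro-B populations: it fell by 0.62 (SE 0.18, adjusted p = 0.0233) against hCD4+ and rose by 0.87 (SE 0.18, adjusted p = 0.00617) against hCD4- pro-B arrays. The fall was lost when any 1 array of the 2 groups was left out. Atf4 (0.21, SE 0.16, adjusted p = 0.316) and Ddit3 (0.63, SE 0.52, adjusted p = 0.372) gave no call against hCD4+ pro-B arrays.

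Sdc1 lay at 0.86 and 0.78 on pre-B arrays, against -0.11 and -0.33 on hCD4+ and -0.58 and -0.77 on hCD4- pro-B arrays, and rose by 1.04 (SE 0.18, adjusted p = 0.00203) and 1.5 (SE 0.18, adjusted p = 0.000513). Prdm1 lay at -1.72 and -1.98 on pre-B arrays, its highest level of the 6 populations, and rose by 1.60 (SE 0.35, adjusted p = 0.00747) against hCD4- pro-B arrays, a call lost without hCD4- pro-B replicate 2. Plasma cell genes summed to 6.98 to 7.06 on pre-B arrays, against 5.45 to 5.56 on hCD4+ and 7.21 to 7.26 on hCD4- pro-B arrays. Different genes led these sums. The brightest was Pou2af1 on pre-B arrays (mean 6.52), where Igj was above background on neither array and Igh-VJ558 on 1 of 2. On hCD4- pro-B arrays Igh-VJ558 was brightest (mean 6.16), and Igj had a mean of 2.16. Primary granule genes of neutrophils, 5 in number and all lower against hCD4+ pro-B arrays, summed to 0.87 to 1.42 on pre-B arrays, against 6.98 to 7.12 on hCD4+ and 0.20 to 0.89 on hCD4- pro-B arrays. The late neutrophil genes summed to -0.96 to -0.31 on pre-B arrays, against -0.66 to 0.17 on hCD4+ and 3.82 to 4.68 on hCD4- pro-B arrays. Plasmacytoid dendritic cell genes summed to 8.17 to 8.24 on pre-B arrays, against 7.68 on both hCD4+ and 7.24 to 7.26 on hCD4- pro-B arrays. The single genes of this list went both ways. Of 10 genes 2 rose and 6 fell against hCD4+ pro-B arrays, and 4 rose and 2 fell against hCD4- ones. Siglech (mean 6.93), Spib (6.47) and Ly6d (5.98) were the brightest on pre-B arrays. The part of cells carrying any of these markers in these changes was not tested.

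Genes with an ERSE or ERSE-II were found on both sides of this step. Of these 11 genes, 3 rose in pre-B against hCD4+ pro-B arrays (Derl3, Herpud1 and Syvn1) and 4 fell (Calr, Canx, Hspa5 and Pdia6). Among the 22 matched genes with neither element 2 rose and 8 fell. Over all genes tested 18.8% rose and 24% fell. At the step from hCD4+ pre-pro-B to hCD4- pro-B arrays the 11 genes held 1 rise (Syvn1) and 7 falls, and the other 22 held 1 rise and 12 falls. The shares over all genes there were 29.2% for rises and 18.6% for falls.

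**Figure D5:**
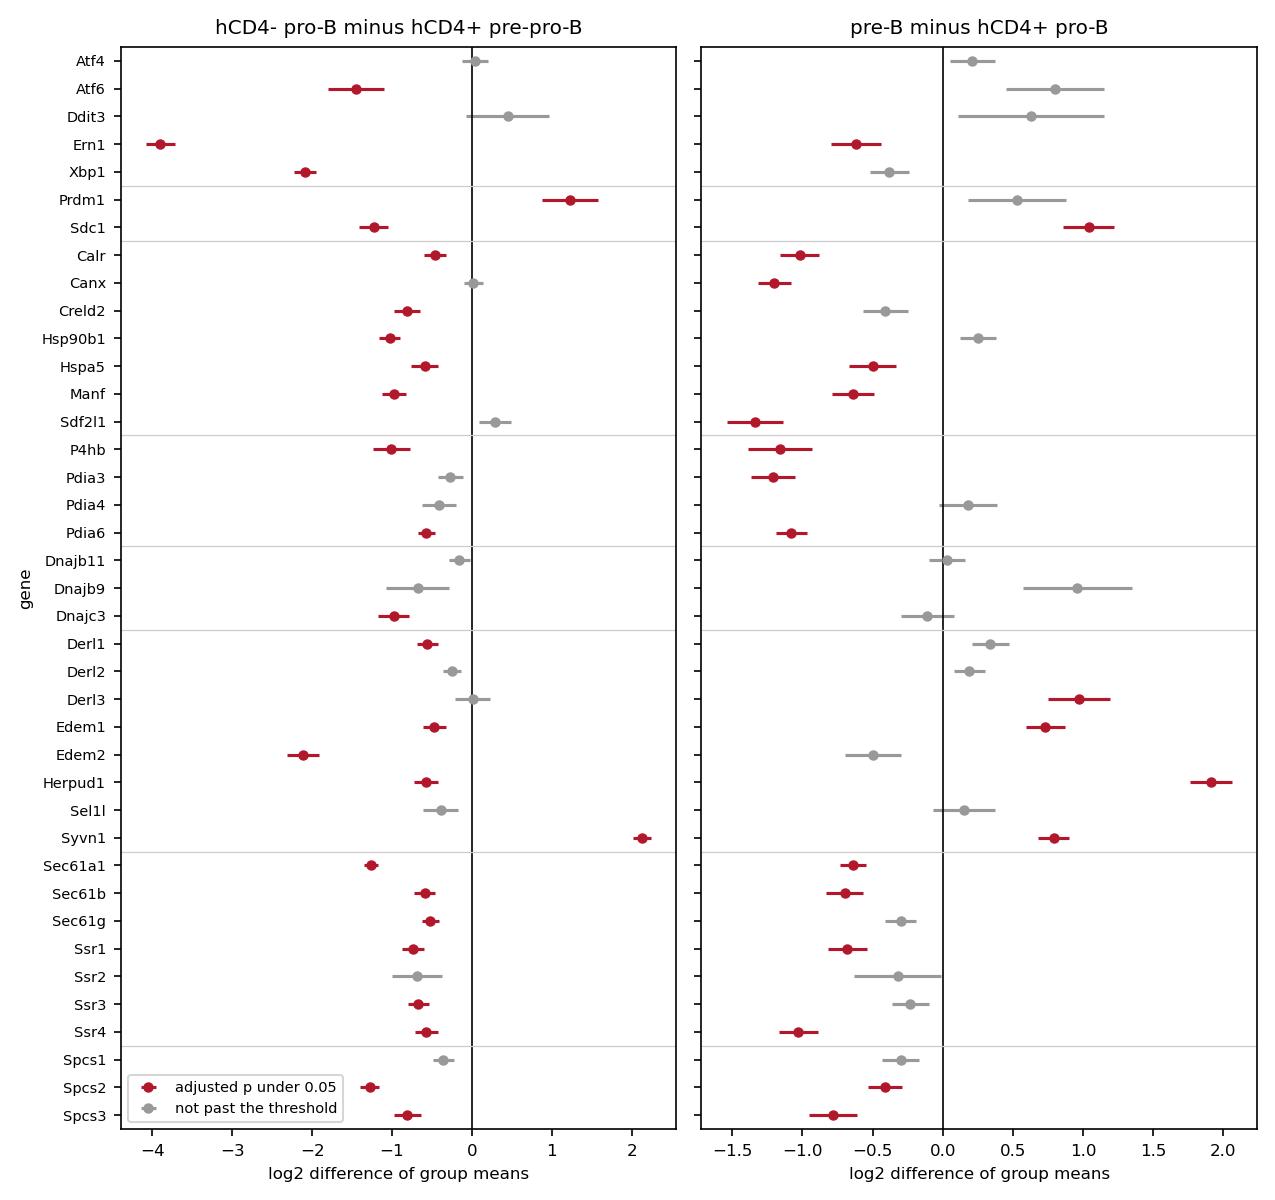
Change of each of the 39 genes (log2 difference of group means, bars 1 SE) in hCD4- pro-B minus hCD4+ pre-pro-B cells (left) and in pre-B minus hCD4+ pro-B cells (right), each made within 1 slide, with red for limma's adjusted p under 0.05. Herpud1, Derl3, Syvn1, Edem1 and Sdc1 are the genes called to the right of 0 in the right panel.

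GMP, the myeloid progenitors of the series, held high levels of many folding and translocation genes and lower levels of several sensor genes than pre-pro-B cells. Of 8 degradation genes 2 rose and 3 fell in GMP against hCD4- pre-pro-B arrays, and 1 rose and 2 fell against hCD4+ ones. Against hCD4- pre-pro-B arrays, on the same slide, 20 of 39 genes rose (34.7% of all genes) and 9 fell (30.8%), with a median of 0.36 beside -0.04 over all genes. Against hCD4+ pre-pro-B arrays, on another slide, 20 rose (31.3%) and 6 fell (22.8%), with a median of 0.38 beside 0.10. This balance depended on the scaling of the arrays. Quantile normalization and cyclic loess gave 11 higher and 11 lower genes against hCD4- pre-pro-B arrays, as did the authors' table, and the medians under these settings were 0.03 to 0.10 in both comparisons. Of the 20 rises, 9 against hCD4- and 10 against hCD4+ pre-pro-B arrays were called under all 5 other scalings.

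Among the genes called higher under all scalings was Sdf2l1, which lay at 3.42 and 3.84 on GMP arrays, against 1.15 and 1.55 on hCD4+ and 0.70 and 1.06 on hCD4- pre-pro-B arrays. It was 6.72-fold higher than in hCD4- pre-pro-B cells (2.75, SE 0.20, adjusted p = 6.93e-06). Calr lay at 5.77 and 6.09 on GMP arrays, against 4.43 and 4.53 on hCD4- pre-pro-B arrays (1.45, SE 0.14, adjusted p = 3.84e-05). Pdia6 lay at 6.69 and 6.76, against 5.41 and 5.22 (1.42, SE 0.11, adjusted p = 1.10e-05), and P4hb at 4.52 and 4.30, against 3.42 and 2.66 (1.37, SE 0.23, adjusted p = 0.000864). All 4 disulfide isomerases, all 7 translocon and receptor genes and all 3 signal peptidase genes rose against both pre-pro-B populations at the 75th percentile scaling. For Sec61a1 the rise of 0.56 (SE 0.09, adjusted p = 0.000765) against hCD4- pre-pro-B arrays became 0.00 after quantile normalization. Second probes gave -0.42 for Ssr3 and -0.50 for Spcs2, where the brighter probes rose by 0.88 and 0.39.

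The lower genes were sensor genes, some degradation genes, Sdc1 and, against hCD4- pre-pro-B arrays, the J domain co-chaperones Dnajb9 (-1.17) and Dnajc3 (-0.54). The calls of these 2 co-chaperones were lost in 5 and 7 alternatives. Sdc1 lay at -4.11 and -3.91 on GMP arrays, against 0.42 and 0.70 on hCD4+ and 0.50 and 0.08 on hCD4- pre-pro-B arrays, and was 23.8-fold and 19.7-fold lower (-4.57 and -4.30, SE 0.18 each, adjusted p = 3.65e-07 and 3.31e-07). Derl3 lay at -2.46 and -2.14, against -0.67 and -0.28 on hCD4- pre-pro-B arrays (-1.82, SE 0.22, adjusted p = 0.000144). Herpud1 lay at 3.56 and 3.43, against 4.95 and 4.56 (-1.26, SE 0.15, adjusted p = 0.000118). Xbp1 lay at 4.60 and 4.51 on GMP arrays, below all 4 pre-pro-B arrays but above all pro-B and pre-B arrays, and fell by 0.98 (SE 0.14, adjusted p = 0.000367) against hCD4- and by 0.68 (SE 0.14, adjusted p = 0.00368) against hCD4+ pre-pro-B arrays. Ern1 lay at 1.52 and 2.01 and fell by 1.04 (SE 0.18, adjusted p = 0.00103) against hCD4- pre-pro-B arrays. Sdc1, Derl3, Herpud1 and Xbp1 kept these calls against both populations under all alternatives.

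Hspa5 lay at 6.67 and 6.79 on GMP arrays, with a rise of 0.56 (SE 0.17, adjusted p = 0.0219) against hCD4+ pre-pro-B arrays that was 0.00 after quantile normalization and in the authors' table, a call lost in 7 alternatives. Atf4 (-0.02, SE 0.16, adjusted p = 0.912) and Ddit3 (0.07, SE 0.52, adjusted p = 0.91) gave no call against hCD4- pre-pro-B arrays. The less bright Atf4 probe gave -0.63 there. Prdm1 was above background on neither GMP array. The plasmacytoid dendritic cell genes summed to 6.73 on both GMP arrays, with 6 of 10 above background on both, against 9.78 to 9.86 on hCD4+ and 10.13 to 10.25 on hCD4- pre-pro-B arrays, and Ly6d, Spib, Ccr9 and Klk1 were not above background in GMP. Primary granule genes summed to 9.84 to 10.14 on GMP arrays, against 3.70 to 5.05 and 0.78 to 1.51, proliferation genes to 6.87 to 6.99, against 6.79 to 6.94 and 4.19 to 4.58, plasma cell genes to 2.85 to 3.04, against 4.65 to 4.69 and 6.30 to 7.18, and the 3 T and NK cell genes in the fit to 0.61 to 1.28, against 3.99 to 4.12 and 3.90 to 4.18. Their part in these changes was not tested.

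Reporter status divided the pathway little. In pre-pro-B cells 1 gene of 39 fell on hCD4+ against hCD4- arrays (8.27% of all genes) and 0 rose (8.78%), on different slides. Pdia3 lay at 2.79 and 2.57 on hCD4+ arrays, against 3.26 and 3.60 on hCD4- arrays (-0.75, SE 0.16, adjusted p = 0.0152). This call was lost without hCD4- replicate 2 or hCD4+ replicate 2, under median scaling, with only the compared arrays and with array weights. At an unadjusted limma p under 0.05 the counts were 3 higher and 4 lower. Xbp1 gave -0.30 (SE 0.14, adjusted p = 0.184) and Ern1 -0.51 (SE 0.18, adjusted p = 0.0901), with both hCD4- arrays above both hCD4+ arrays for each gene. The calls depended on the processing, with 8 rises and 3 falls under normexp background correction and 4 calls under median scaling. Primary granule genes summed to 3.70 to 5.05 on hCD4+ arrays, against 0.78 to 1.51 on hCD4- arrays, and plasma cell genes to 4.65 to 4.69, against 6.30 to 7.18. All 6 proliferation genes were called higher on hCD4+ arrays, with sums of 6.79 to 6.94, against 4.19 to 4.58 on hCD4- arrays, and late neutrophil genes summed to -1.71 to -1.68, against -0.26 to 1.45. Their part in these values was not tested.

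In pro-B cells 1 of 39 genes rose on hCD4+ against hCD4- arrays (11.6% of all genes) and 3 fell (8.86%), again on different slides. Ern1 lay at -0.18 and -0.05 on hCD4+ arrays, against -1.45 and -1.75 on hCD4- arrays, and was 2.81-fold higher (1.49, SE 0.18, adjusted p = 0.00129). The 3 that fell were degradation genes. Syvn1 lay at 5.37 and 5.24, against 6.05 and 5.99 (-0.72, SE 0.11, adjusted p = 0.00447), Herpud1 at 3.51 and 3.60, against 4.25 and 4.18 (-0.66, SE 0.15, adjusted p = 0.0193), and Derl2, another derlin, at 2.62 and 2.73, against 3.25 and 3.23 (-0.56, SE 0.11, adjusted p = 0.00883). The call of Herpud1 was lost when any 1 of these 4 arrays was left out, and that of Derl2 without either hCD4- array or without hCD4+ replicate 1. Marker lists differed too: primary granule genes summed to 6.98 to 7.12 on hCD4+ arrays, against 0.20 to 0.89 on hCD4- arrays, late neutrophil genes to -0.66 to 0.17, against 3.82 to 4.68, and plasma cell genes to 5.45 to 5.56, against 7.21 to 7.26. Of 10 plasmacytoid dendritic cell genes 6 rose and 1 fell on hCD4+ arrays, with sums of 7.68 on both, against 7.24 to 7.26. Among the plasma cell genes, Igj was above background on 1 of 2 hCD4+ and 2 of 2 hCD4- arrays. Their part in these changes was not tested.

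The difference of the 2 reporter contrasts, pro-B minus pre-pro-B, passed the test in 6 of 39 genes (23% of all genes). It was positive for Ern1 (2.00, SE 0.25, adjusted p = 0.00176), Edem2 and Pdia3 and negative for Derl2 (-0.89, SE 0.15, adjusted p = 0.00569) and Syvn1. For Ern1 the reporter contrast was 1.49 in pro-B cells and -0.51 in pre-pro-B cells, and for Derl2 it was -0.56 and 0.33, the pre-pro-B contrasts not passing the test on their own. The calls of Ern1 and Derl2 held under all alternatives, whereas those of Edem2, Pdia3 and Syvn1 were each lost in 8 or more. The sixth gene was Prdm1, whose difference has no measured size, since neither hCD4- pre-pro-B array was above background. In the same test all 6 proliferation genes were negative, and 3 of 5 primary granule and 5 of 10 plasmacytoid dendritic cell genes were positive. Their part in these differences was not tested.

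Beyond the 39 genes, 104 genes of a wider list of the same pathway were in the fit (113 listed). Of these 45 fell (43.3%, against 18.6% of all genes) and 10 rose (9.62%, against 29.2%) in hCD4- pro-B relative to hCD4+ pre-pro-B arrays, with a median of -0.28. Set against hCD4- pre-pro-B arrays, 41 fell (39.4%, against 26.9%) and 18 rose (17.3%, against 32.7%), with a median of -0.14. The folding group gave 12 falls and 2 rises among 19 genes in the first comparison. Pdia5, a disulfide isomerase, lay at 0.31 and 0.16 on hCD4+ pre-pro-B arrays and was not well above background on either hCD4- pro-B array, at least 33.3-fold lower there (adjusted p = 1.13e-05). Sec24d, a COPII coat subunit, fell by 4.26 (SE 0.64, adjusted p = 0.000805) and Creb3l2, a relative of ATF6, by 2.06 (SE 0.24, adjusted p = 0.000205).

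The 16 signalling genes of the wider list held 4 rises and 6 falls at this step, and genes known as ATF4 targets were found among both. Trib3, a pseudokinase gene, lay at 1.71 and 1.86 on hCD4- pro-B arrays, against -3.76 and -1.93 on hCD4+ pre-pro-B arrays, and rose by 4.63 (SE 0.61, adjusted p = 0.000382). Asns, asparagine synthetase, lay at -0.41 and -0.28, against -3.83 and -3.91, and rose by 3.53 (SE 0.23, adjusted p = 7.06e-06). Sesn2, another such target, lay at 0.52 and 0.91, against 1.67 on both arrays, and fell by 0.96 (SE 0.18, adjusted p = 0.00297), while Atf3 gave 0.69 (SE 1.70, adjusted p = 0.777). On GMP arrays Asns lay at 1.95 and 1.99, and it was 5.85 above hCD4+ pre-pro-B arrays on the log2 scale (SE 0.23, adjusted p = 3.94e-07). The gene listed as 2010001M09Rik, which RefSeq names Mzb1 and which encodes an ER protein of B cells and plasma cells, lay at 5.04 and 5.0 on hCD4- pro-B arrays, against 2.57 and 2.46 on hCD4+ pre-pro-B arrays (2.5, SE 0.17, adjusted p = 8.97e-06). It was not well above background on either GMP array, at least 140.2-fold lower than in hCD4+ pre-pro-B cells (adjusted p = 1.67e-08).

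In pre-B against hCD4+ pro-B arrays 28 of the 104 genes fell (26.9%, against 24% of all genes) and 17 rose (16.3%, against 18.8%), shares near those over all genes. N-glycosylation genes made up 11 of the falls, out of 15 such genes in the fit with a median of -0.78 and every change below 0. Mogs, the glucosidase that trims the first glucose from new glycans, had been highest in GMP (6.19 and 6.20) and lay at 3.22 and 3.21 on pre-B arrays, against 4.81 and 4.99 on hCD4+ pro-B arrays (-1.69, SE 0.11, adjusted p = 1.76e-05). The degradation gene Edem3 lay at 1.84 and 1.80 on pre-B arrays, against -0.75 and -0.50 (2.45, SE 0.15, adjusted p = 1.18e-05), and the thioredoxin-like gene Txndc11 at 4.73 and 4.58, against 2.51 and 2.32 (2.24, SE 0.12, adjusted p = 8.05e-06). In GMP 42 of 104 rose (40.4%, against 34.7% of all genes) and 20 fell (19.2%, against 30.8%) relative to hCD4- pre-pro-B arrays, and 39 rose (37.5%, against 31.3%) and 14 fell (13.5%, against 22.8%) relative to hCD4+ ones. On hCD4+ against hCD4- arrays 4 rose (3.85%, against 8.78%) and 8 fell (7.69%, against 8.27%) in pre-pro-B cells, and 5 rose (4.81%, against 11.6%) and 10 fell (9.62%, against 8.86%) in pro-B cells. Among them Eif2ak3, the gene of PERK, lay at 0.18 and 0.24 on hCD4+ pro-B arrays, against 1.46 and 1.51 on hCD4- pro-B arrays (-1.27, SE 0.12, adjusted p = 0.000437).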

How the data were processed

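The authors deposited 12 Agilent scanner files, with 1 intensity per spot. Per the file headers, the software was Agilent Feature Extraction (version 10.7.3.1, protocol GE1_107_Sep09), probe coordinates are mm9 and the processed intensity is background-subtracted. They also deposited a table of log2 values with 1 decimal, whose normalization is not given in the sources used here. Its column medians are all 6.5, and it was used as an alternative only.

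Control spots and outlier spots were left out, and a probe was kept if some group had it well above background on each of its 2 arrays. The level is log2 of the processed signal minus each array's 75th percentile, with the brightest kept probe per gene (3907 of 18555 genes had several). One limma 3.58.1 model (R 4.3.3) covered 6 groups of 2 arrays, leaving 6 residual degrees of freedom, with Benjamini-Hochberg adjustment over all 18555 genes, and was tested on simulated data. Only 2 arrays per group limit the precision. A gene not above background in 1 group has a bound only ("at least N-fold"), set by the dimmest probes above background. Summed levels are log2 of the sum of linear levels over a marker list, so the brightest genes of a list weigh most.

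The 39 genes, the wider list and the marker lists were chosen with earlier results of these data known. Array values are given for the 4 largest rises and falls called in a comparison, for Xbp1, Hspa5, Ddit3, Atf4, Sdc1 and Prdm1, and for examples by role. Up to 4 called genes of the wider list per comparison could be named by size, and Mogs, Creb3l2, Sesn2 and Atf3 are further examples chosen after their values were seen. Of 8 marker lists, the summed levels of several with larger shifts are given beside the results. The list of 11 pro-B and pre-B genes is not among them, though it shifted widely. It summed to -0.24 to -0.21 on GMP, 4.90 to 5.22 on hCD4+ pre-pro-B and 9.46 to 9.49 on hCD4- pro-B arrays. All 11 genes were above background on both hCD4- pro-B arrays, 6 on both hCD4+ pre-pro-B arrays and 3 on both GMP arrays. Alternatives covered background correction, scaling, filter, probe choice, array weights, slide, replicate block and leaving out each array. Gene names are the array's, except 2010001M09Rik, renamed through RefSeq, and promoters are RefSeq's (GRCm38.p6).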

Additional observations from a re-analysis of the deposited data

Results flagged for a closer look

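The change between hCD4+ and hCD4- arrays differed between pro-B and pre-pro-B cells in 6 of the 39 genes, against 23% of all genes. The test was limma's, of the difference itself, with Benjamini-Hochberg adjustment over all genes. Ern1 showed the largest difference, 2.00 on the log2 scale (SE 0.25, adjusted p = 0.00176), and Derl2 the next most certain, -0.89 (SE 0.15, adjusted p = 0.00569). These 2 calls held under the alternatives run, with differences of 1.47 to 2.15 for Ern1 and -1.42 to -0.65 for Derl2. The differences were 1.13 for Edem2 (adjusted p = 0.0243), 0.85 for Pdia3 (adjusted p = 0.0287) and -0.56 for Syvn1 (adjusted p = 0.0403), and each of these was lost in 8 or more alternatives. The sixth gene, Prdm1, was above background on neither hCD4- pre-pro-B array, so that its difference has no measured size. The 4 groups lay on 3 slides, so this difference and slide cannot be told apart.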

How the results depend on the processing

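Of 164 called changes of the 39 genes, 89 kept direction and call under all alternatives, 75 were lost under at least 1 and 7 of those turned direction. The causes were not tested. Replicate numbers were not taken to pair the samples: deviations of same-numbered arrays correlated at -0.00687 to 0.255 over 15 group pairs, 10 of them over 0.1. With the replicate number as a block the counts of calls were 1 and 5 for the reporter contrasts in pre-pro-B and pro-B cells, 28 and 27 for hCD4- pro-B relative to hCD4- and hCD4+ pre-pro-B cells, 23 and 24 for pre-B against hCD4+ and hCD4- pro-B cells, and 29 and 26 for GMP against hCD4- and hCD4+ pre-pro-B cells, with 7 for the difference of contrasts, none moving by over 1.5 times. Dnajb9 gained 4 calls. Leaving out the hCD4- pre-pro-B arrays, an alternative chosen after seeing the data, gave 5, 27, 22, 27 and 26 calls for pro-B reporter status, hCD4- pro-B relative to hCD4+ pre-pro-B, pre-B against hCD4+ and hCD4- pro-B, and GMP against hCD4+ pre-pro-B.

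For reporter status in pre-pro-B cells (1 call) the count was 11 under normexp, 4 under median scaling, 3 in the authors' table, and 0 with only the compared arrays or with array weights, and the median (0.03) was 0.34 under median scaling. In pro-B cells (4 calls) it was 8 under median scaling, 7 with only the compared arrays and 8 with array weights, and the median (-0.09) was -0.30 under median scaling. For the difference of contrasts (6 calls) it was 12 under normexp and under median scaling, and 2 with no filter or only the compared arrays. There were 18 calls for hCD4- pro-B relative to hCD4- pre-pro-B cells under median scaling (28 otherwise), and 17 for GMP against hCD4- pre-pro-B cells with only the compared arrays (29).

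Medians moved with scaling. For hCD4- pro-B relative to hCD4- pre-pro-B cells (-0.60) they were -0.90 under quantile, -0.92 under loess, -0.90 in the authors' table and -0.40 under median scaling, and against hCD4+ (-0.57) -0.82 under quantile and -0.85 under loess. For pre-B against hCD4+ pro-B cells (-0.30) loess gave -0.12, and against hCD4- (-0.37) loess gave -0.20, the authors' table -0.10 and median scaling -0.56. For GMP against hCD4- pre-pro-B cells (0.36) they were 0.54 under normexp, 0.03 under quantile, 0.82 under median scaling, 0.08 under loess and 0.05 in the authors' table, and against hCD4+ (0.38) 0.05 under quantile, 0.53 under median scaling, 0.05 under loess and 0.10 in the authors' table.

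Direction turned for single genes. In GMP against hCD4- pre-pro-B cells Hsp90b1 gave -0.52 under quantile, -0.53 under loess and -0.60 in the authors' table, Sec61a1 0.00 under quantile, Edem1 0.45 under median scaling, Derl2 -0.01 under loess, and in the authors' table Ssr3 -0.10 and Spcs2 -0.30. Against hCD4+ pre-pro-B cells Sec61g gave -0.08 under quantile and -0.10 in the authors' table, Derl2 -0.30 under loess, and Sec61a1 and Spcs1 -0.05 in that table. In the authors' table Ssr3 also gave -0.50 for reporter status in pre-pro-B cells and 0.75 for the difference of contrasts, and Atf4 -0.40 for hCD4- pro-B relative to hCD4- pre-pro-B cells. With the mean of the kept probes, Spcs2 gave -0.06 and Derl1 0.46 in GMP against hCD4- and Derl1 0.41 against hCD4+ pre-pro-B cells, and Ssr3 0.61 for the difference of contrasts.

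Leaving out 1 array at a time gave 0 to 3 and 2 to 5 calls for reporter status in pre-pro-B and pro-B cells, 21 to 28 and 20 to 27 for hCD4- pro-B relative to hCD4- and hCD4+ pre-pro-B cells, 16 to 22 and 16 to 27 for pre-B against hCD4+ and hCD4- pro-B cells, 21 to 28 and 19 to 26 for GMP against hCD4- and hCD4+ pre-pro-B cells, 2 to 7 for the difference and 35 to 37 across all groups. Medians ranged, in the same order, over -0.09 to 0.12, -0.15 to 0.01, -0.74 to -0.45, -0.64 to -0.53, -0.34 to -0.24, -0.42 to -0.33, 0.31 to 0.44 and 0.23 to 0.46. Pre-pro-B reporter calls were 0 without hCD4- replicate 2 or hCD4+ replicate 2 and 3 without hCD4- replicate 1, and pro-B ones 2 without hCD4- replicate 2 or hCD4+ replicate 1. The calls for the difference were 2 without hCD4+ pre-pro-B replicate 2 or hCD4- pro-B replicate 2 and 3 without hCD4- pro-B replicate 1 or either hCD4+ pro-B array. The GMP median of 0.23 came without hCD4+ pre-pro-B replicate 2.

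Over all genes the share of higher calls, 51.5% for pre-pro-B reporter status, was 24.5% under normexp, 83.4% under median scaling and 68.3% under loess, and 67.8% with only the compared arrays or array weights. It was 31.1% under median scaling for pro-B reporter status (56.8%), 40.1% under normexp and 37.1% with no filter for hCD4- pro-B relative to hCD4- pre-pro-B cells (54.9%), and 49.2% under loess against hCD4+ (61.1%). It was 34.8% under median scaling for pre-B against hCD4- pro-B cells (47.9%), 40.1% under normexp and 69.1% under median scaling for GMP against hCD4- pre-pro-B cells (53%), and 47.5% under loess against hCD4+ (57.9%). For the difference (56.6%) it was 72.7%, 45.9%, 18% and 41% under normexp, quantile, median scaling and loess. The median of all genes moved by over 0.1 under normexp or median scaling, for example to -0.33 and 0.41 in GMP against hCD4- pre-pro-B cells (-0.04).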
